A study of Mus musculus with 2 samples.

Results

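The nuclear genes of the mitochondrial respiratory chain were compared between splenic CD4+ alpha beta T cells from LatY136F mice and from wildtype mice. The members were set by a rule on gene symbols, written with earlier results of these data known: symbols that begin with Nduf, with Sdh followed by a, b, c or d, with Uqcr, with Cox followed by a digit, or with Atp5, and Cycs. The rule found 27 probes of 25 genes among the 4331 genes with a named probe. In the LatY136F mice the adaptor Lat, which links the T cell receptor to the enzymes below it, carries phenylalanine in place of a tyrosine, and these mice are known for an expansion of T helper type 2 cells. The wildtype mice carried no such change. Cells of both genotypes were enriched on magnetic beads against CD4 and then sorted, and no treatment is named; the labels say nothing of strain background, age or number of mice. Total RNA of both genotypes was hybridised together on 2 two-colour arrays that form a dye-reversal pair, so there is 1 biological comparison and no p-value.

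The respiratory chain passes electrons from NADH (through complex I) and from succinate (through complex II) to ubiquinone, on to cytochrome c through complex III, and to oxygen through complex IV. Complexes I, III and IV pump protons out of the mitochondrial matrix, and complex V, the ATP synthase, lets them flow back to make ATP. Resting T cells are known to rely on this chain for most of their ATP, while activated T cells add glycolysis and build more mitochondria. Most subunits are encoded in the nucleus, and a few core subunits in mitochondrial DNA.

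Values are log2 ratios of LatY136F over wildtype, with each array centred on its median over all probes. A mean is over both arrays, and ± gives 0.5 times the difference between them, which may be technical only. The ratio of channel 2 over channel 1, which was assumed, and the log10 base of the deposited values are likely and not stated; with the direction the other way round, every "higher" becomes "lower". The table holds no signal strength, so probes with weak signal cannot be told and levels of different genes cannot be set beside each other. The number of arrays also limits the precision. In such bulk RNA, fewer cells of a type and less RNA per cell cannot be told apart.

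Coverage of the chain was partial. Of 110 protein-coding genes that meet the name rule in RefSeq (GRCm38.p6), 25 (22.7%) were measured: 8 of 49 for complex I, 2 of 8 for complex II, 1 of 8 for complex III, 7 of 27 for complex IV and 6 of 17 for complex V, and Cycs. None of the 11 Ndufs and Ndufv genes, which include the nuclear core subunits of complex I, was measured, and neither was any of 13 listed mitochondrially encoded subunits. A single probe stood for each of 23 genes, and 2 genes had 2 probes. RefSeq also lists pseudogenes named after Atp5c1, Atp5pb, Ndufa11, Ndufa12 and Uqcrh, whose RNA could share a probe with the gene.

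Respiratory chain promoters are known for sites of the nuclear respiratory factor NRF1, of ETS family factors such as GABP, of YY1 and of SP family factors. RefSeq promoter windows (GRCm38.p6, 250 bases before to 50 bases after the start) matched 21 of the 25 genes. The windows of the 4 genes past 1.2-fold in one direction on each array are shown, followed by that of Cycs, the only mobile protein carrier of the chain. All 5 lie on the minus strand and are written 5′ to 3′ along the gene; capitals mark matches to the motifs, on either strand. The windows are chr17:83514284-83514583 for Cox7a2l, chr19:7217567-7217866 for Cox8a, chr5:115348909-115349208 for Cox6a1, chr3:105959214-105959513 for Atp5pb and chr6:50566520-50566819 for Cycs.
Cox7a2l: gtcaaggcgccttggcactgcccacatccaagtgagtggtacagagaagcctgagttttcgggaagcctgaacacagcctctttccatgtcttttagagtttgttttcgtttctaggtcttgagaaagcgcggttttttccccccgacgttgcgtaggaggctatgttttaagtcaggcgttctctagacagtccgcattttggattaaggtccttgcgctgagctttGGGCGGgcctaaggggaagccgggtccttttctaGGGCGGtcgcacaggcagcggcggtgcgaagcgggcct
Cox8a: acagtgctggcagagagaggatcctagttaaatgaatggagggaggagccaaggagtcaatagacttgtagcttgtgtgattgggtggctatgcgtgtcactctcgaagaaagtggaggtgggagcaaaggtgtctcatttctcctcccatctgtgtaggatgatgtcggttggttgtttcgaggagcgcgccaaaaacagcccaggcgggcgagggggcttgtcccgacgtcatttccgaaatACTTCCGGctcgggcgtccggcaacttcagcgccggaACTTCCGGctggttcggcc
Cox6a1: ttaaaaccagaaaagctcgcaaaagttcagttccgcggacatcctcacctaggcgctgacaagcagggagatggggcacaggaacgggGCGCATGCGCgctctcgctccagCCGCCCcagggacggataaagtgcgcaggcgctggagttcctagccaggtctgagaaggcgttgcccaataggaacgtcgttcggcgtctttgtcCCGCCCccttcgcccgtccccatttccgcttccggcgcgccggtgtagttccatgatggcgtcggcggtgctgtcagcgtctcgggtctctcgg
Atp5pb: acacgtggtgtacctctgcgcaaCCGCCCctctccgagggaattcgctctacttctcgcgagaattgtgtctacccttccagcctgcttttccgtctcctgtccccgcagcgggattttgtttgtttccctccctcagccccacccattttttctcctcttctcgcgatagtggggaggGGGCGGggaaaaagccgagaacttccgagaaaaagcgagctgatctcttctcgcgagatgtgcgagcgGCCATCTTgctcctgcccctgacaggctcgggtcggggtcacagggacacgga
Cycs: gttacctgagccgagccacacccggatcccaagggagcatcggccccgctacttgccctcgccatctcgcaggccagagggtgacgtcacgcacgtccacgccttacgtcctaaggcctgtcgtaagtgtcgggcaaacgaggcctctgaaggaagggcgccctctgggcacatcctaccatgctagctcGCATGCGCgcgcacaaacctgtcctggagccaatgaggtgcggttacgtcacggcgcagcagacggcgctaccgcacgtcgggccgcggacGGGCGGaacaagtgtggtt

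The motifs searched were the core GCATGCGC for NRF1, CCGGAAGT for the ETS family, AAGATGGC for YY1 and GGGCGG for the SP family. The Cox7a2l window held GGGCGG at 2 places and no match to the other motifs. The Cox8a window held the ETS motif at 2 places, both reading on the opposite strand. The Cox6a1 window held the NRF1 core on both strands in overlapping letters, and GGGCGG at 2 places. The Atp5pb window held 1 YY1 motif, reading on the opposite strand, and GGGCGG at 2 places. In the window as written, the YY1 match begins at -3 relative to the start. The Cycs window held the NRF1 core once and GGGCGG once. Over the 21 genes the NRF1 core was present in the windows of 4 (19.0%: Cox6a1, Cycs, Ndufa11 and Sdhb), against 3.05% of 27025 genes in the RefSeq table. The long NRF1 form was present for 2 (9.52%: Cox6a1 and Ndufa11), against 1.07% of all genes. The ETS motif was present for 4 (19.0%: Cox14, Cox16, Cox8a and Uqcrh), against 4.31% of all genes. The YY1 motif was present for 2 (9.52%: Atp5pb and Ndufb8), against 3.19%, and GGGCGG for 12 (57.1%), against 38.2%. The member windows had a median of 56.2% G and C letters, against 52.7% over all windows, and the shares were not adjusted for this. These matches describe letters in the windows, and which factors act there was not tested.

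The respiratory chain genes lay close to equal in LatY136F and wildtype cells, with 1 exception. Their median log2 ratio was 0.065, against 0.00039 for all 4331 genes. None passed 2-fold in either direction on both arrays, while 4.2% of all genes were higher and 0.97% lower by this threshold. At 1.5-fold no member was higher and 1, Cox7a2l, was lower, against 7.83% and 2.93% of all genes. At 1.2-fold on both arrays 3 members (Cox8a, Cox6a1 and Atp5pb) were higher and Cox7a2l was lower, against 15.1% and 7.94% of all genes. The mean of 20 members (80.0%) lay within 1.2-fold of equality, and that of 58.7% of all genes. Over the members the middle 50% of means spanned 0.16 on the log2 scale, and over all genes 0.43. The value after ± was also smaller for the members, with a median of 0.065 against 0.15 for all genes. How far this smaller array difference accounts for the members' narrower spread and larger share within 1.2-fold was not tested.

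**Figure D1:**
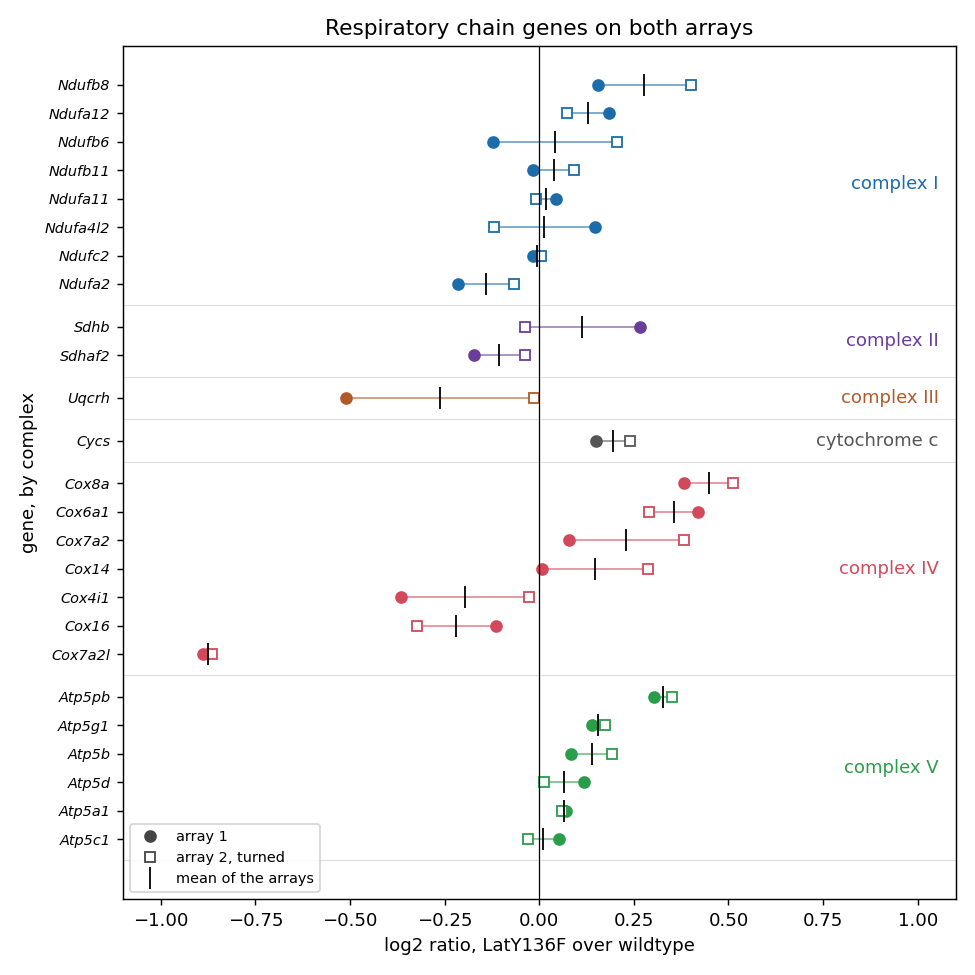
Log2 ratio of LatY136F over wildtype (x axis) for the 25 respiratory chain genes (y axis, by complex); filled circles are array 1, open squares array 2 after turning its sign, and black ticks their mean. Cox7a2l stands at -0.89 and -0.86, while the other 24 means lie between -0.26 and 0.45.

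The arrays agreed in sign for 18 of the 25 genes (72.0%), against 55.8% of all genes. Of the 18, 12 were above 0 on both arrays and 6 below. The array error (the value after ±) had a median of 0.065 for the members and 0.15 for all genes, and the widest among members was 0.25, for Uqcrh. As a description across the 25 genes, Pearson's r between the arrays was 0.74 and Spearman's rho 0.57; without Cox7a2l r was 0.52 and rho 0.52 over 24 genes. Over all 4331 genes r was 0.33 and rho 0.16. All points share the same 2 hybridisations, and genes are not independent replicates.

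**Figure D2:**
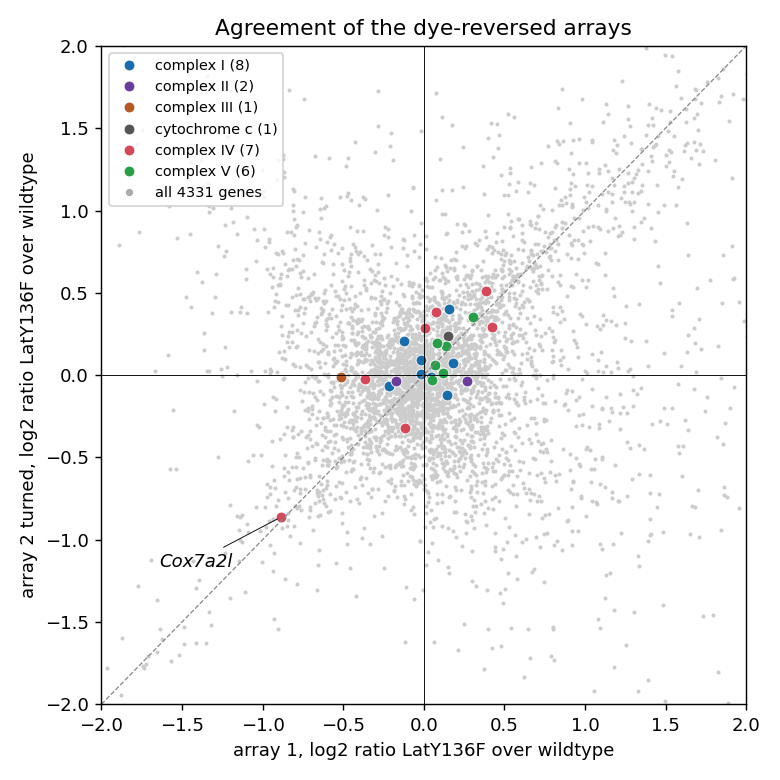
Log2 ratio on array 1 (x axis) against array 2 after turning its sign (y axis), coloured points for respiratory chain genes by complex and grey points for all 4331 genes inside the axis limits; the dashed line marks equal values. Cox7a2l lies near the dashed line at -0.89 and -0.86, and the other members lie around 0.

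Complex I takes electrons from NADH. All 7 of its measured subunits are accessory ones, which surround the catalytic core and are needed for its assembly and stability. Ndufb8, in the membrane arm, gave 0.15 on array 1 and 0.40 on array 2, a mean of 0.28 ± 0.12 (1.21-fold), the highest of the complex. Ndufa12, in the peripheral arm, gave 0.18 and 0.073 (0.13 ± 0.055). Ndufa2 was the lowest, with -0.21 and -0.067 (-0.14 ± 0.074). These 3 were the complex I genes with the same sign on both arrays, and none of them passed 1.2-fold on both.

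The other complex I genes had opposite signs on the arrays and means near 0. Ndufb6 gave -0.12 and 0.21, and Ndufb11, encoded on the X chromosome, -0.016 and 0.092. Ndufa11, in the membrane arm, gave 0.045 and -0.0091, and Ndufc2 -0.017 and 0.0058. These 4 subunits have no direction here. Ndufa4l2, a hypoxia-induced relative of Ndufa4 that falls under the rule by its name, gave 0.15 and -0.12 (0.013 ± 0.13), likewise without a direction. The median over the 8 genes was 0.028, and 0.038 over the 7 subunits.

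Complex II oxidises succinate and also serves the citric acid cycle. Its iron-sulfur subunit Sdhb gave 0.27 on array 1 and -0.038 on array 2, a mean of 0.11 ± 0.15. Sdhaf2, a factor that helps attach the flavin cofactor to Sdha, had a mean of -0.11 ± 0.068. Its 2 probes lay close together, at -0.17 and -0.021 for one and -0.17 and -0.054 for the other. Complex III was measured through Uqcrh alone, the hinge subunit near the cytochrome c docking site. Uqcrh gave -0.51 on array 1 and -0.015 on array 2, a mean of -0.26 ± 0.25, so the low value rests on array 1.

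Cytochrome c, encoded by Cycs, carries electrons from complex III to complex IV and also triggers caspase activation when released from mitochondria. Its 2 probes disagreed. The probe annotated with a RefSeq mRNA gave 0.43 on array 1 and 0.50 on array 2 (1.38-fold), the highest mean of all 27 member probes. The probe annotated with an expressed sequence tag gave -0.13 and -0.023. Their average was 0.19 ± 0.045, which hides that difference. Over all member probes, the 14 annotated with mRNA or full-length cDNA records had a median of 0.10, with means between -0.88 and 0.47. The 13 annotated with expressed sequence tags had a median of 0.013 and means between -0.26 and 0.28.

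Complex IV, cytochrome c oxidase, passes electrons to oxygen. Its 7 genes spread the most, with means between -0.88 and 0.45, and after centring all had the same sign on both arrays. For Cox14 this rests on the centring, since its deposited values were -0.0015 and -0.080 before array 2 was turned. Cox8a, the widely expressed form of subunit VIII, gave 0.38 on array 1 and 0.51 on array 2 (0.45 ± 0.065, 1.36-fold). Cox6a1, the non-muscle form of subunit VIa, gave 0.42 and 0.29 (0.36 ± 0.065, 1.28-fold). Both passed 1.2-fold higher on each array. Cox7a2, the non-muscle form of subunit VIIa, gave 0.078 and 0.38 (0.23 ± 0.15) and passed 1.2-fold on array 2 only.

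Cox4i1, the common form of the regulatory subunit IV, lay on the other side, with -0.37 on array 1 and -0.027 on array 2 (-0.20 ± 0.17). Its ratio was below that of Cox8a by 0.75 on array 1 and 0.54 on array 2. A single probe stands for each of these genes, so a difference between probes cannot be told apart from one between subunits. Of the factors that help build the complex, Cox14, which acts on the newly made Cox1 subunit, gave 0.0061 and 0.29 (0.15 ± 0.14). Cox16, which takes part in the maturation of the Cox2 subunit, gave -0.11 and -0.32 (-0.22 ± 0.10). Neither passed 1.2-fold on both arrays.

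Cox7a2l, also called SCAF1, is a relative of Cox7a2 that links complex III to complex IV in respiratory supercomplexes. The deposited values were -0.271 on array 1 and 0.267 on array 2, opposite as a dye reversal makes them. After turning and centring they gave -0.89 and -0.86, a mean of -0.88 ± 0.012, or 1.84-fold lower in LatY136F cells. The arrays thus differed by far less than the size of the ratio. If the deposited values were log2 and not log10, its mean would be -0.26. Only 81 of 4331 genes had a lower mean. The ratio of Cox7a2l was below that of its relative Cox7a2 by 0.97 on array 1 and 1.25 on array 2. One probe stands for each gene, so no second probe supports either value.

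Complex V, the ATP synthase, was represented by 6 genes whose means all lay above 0, between 0.011 and 0.33; without centring the lowest, Atp5c1, was at -0.0061. Atp5pb encodes the b subunit of the peripheral stalk, which holds the catalytic head still. It gave 0.30 on array 1 and 0.35 on array 2 (0.33 ± 0.024, 1.25-fold), above the other 5 genes on both arrays, and was the only one past 1.2-fold on both. Atp5g1, one of several genes for the same proton-carrying ring subunit, gave 0.14 and 0.17 (0.16 ± 0.018).

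The genes of the catalytic head and rotating stalk had means closer to equality than Atp5pb and Atp5g1. On array 2 Atp5b lay slightly above Atp5g1. Atp5b, the catalytic beta subunit, gave 0.084 and 0.19 (0.14 ± 0.055), and Atp5a1, the alpha subunit, 0.071 and 0.059 (0.065 ± 0.0059). Atp5d, the delta subunit of the rotating stalk, gave 0.12 and 0.013 (0.065 ± 0.052). Atp5c1, the gamma subunit that forms the shaft, gave 0.053 and -0.031 (0.011 ± 0.042) and was the one gene of complex V with opposite signs.

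Set beside each other, the medians were 0.15 for complex IV, 0.10 for complex V, 0.028 for complex I, 0.0041 for complex II and -0.26 for complex III. This order did not hold on each array. On array 1 complex V had the highest median, at 0.10, while complex IV stood at 0.0061. On array 2 complex IV had 0.29 and complex V 0.12. These complex IV medians are the values of the assembly factor Cox14. Over the 4 complex IV subunits alone the median was 0.29, with 0.23 on array 1 and 0.34 on array 2. Both array values lay above those of complex V. Complex V lay above complex I on both arrays, where complex I had 0.014 and 0.039. Complexes II and III rest on 2 genes and 1 gene. Structural subunits had a median of 0.089 over 20 genes, and the 5 assembly factors and relatives -0.11. No test of these differences was possible with 1 biological comparison.

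Other genes that work with the chain held 2 ratios larger than that of Cox7a2l. Atpif1 encodes an inhibitor that binds the ATP synthase when the proton gradient collapses; it gave 1.28 on array 1 and 1.05 on array 2 (1.16 ± 0.11, 2.24-fold higher). Slc25a4, which exchanges ATP for ADP across the inner membrane and is known as the form of heart and muscle, gave 1.15 and 0.88 (1.01 ± 0.13, 2.02-fold). Its relative Slc25a5, the form of proliferating cells, gave -0.16 and 0.057. The list of carriers, porins and proteins that work with them held 7 measured genes, with a median of 0.19. Among these 7, Atpif1 and Slc25a4 passed 1.5-fold higher on each array and none passed it lower. The shares over all genes were 7.83% higher and 2.93% lower. The outer membrane porin Vdac2 stood at 0.20 ± 0.067.

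Genes that feed electrons to ubiquinone or help make it went both ways. Sqor, which oxidises hydrogen sulfide, gave 0.55 and 0.60 (0.58 ± 0.025, 1.49-fold higher), and Coq8a, needed for ubiquinone synthesis, -0.35 and -0.48 (-0.41 ± 0.063). Gpd2, which feeds electrons from glycerol phosphate, stood at 0.19 ± 0.10. None of these 3 measured genes passed 1.5-fold on both arrays. Of 8 genes of pyruvate dehydrogenase and the citric acid cycle none passed 1.5-fold, with a median of -0.099. The lowest was Pdha1, a subunit of pyruvate dehydrogenase, with -0.66 and -0.26, followed by Suclg1 at -0.30 ± 0.26 and Dlat at -0.22 ± 0.13.

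Regulators of mitochondrial biogenesis had a median of -0.041 over 6 genes, none of them past 1.5-fold. Tfam, which packages and transcribes mitochondrial DNA, gave -0.40 and -0.63 (-0.51 ± 0.11, 1.43-fold lower), and the coactivator Ppargc1a -0.72 and -0.22 (-0.47 ± 0.25). The nuclear receptor Esrra, a partner of that coactivator, gave 0.36 and 0.50 (0.43 ± 0.067). Mitochondrial ribosomal proteins had a median of -0.14 over 9 genes, with Mrpl9 at -0.38 ± 0.061, Mrps31 at -0.25 ± 0.062 and Mrpl45 at -0.24 ± 0.099. Protein import genes had a median of -0.0014 over 9, with the chaperonin Hspe1 at -0.37 ± 0.038, Tomm20 at -0.21 ± 0.10 and Timm8a1 at -0.19 ± 0.14. Antioxidant enzymes had a median of 0.12 over 4, with the peroxidases Gpx4 at 0.39 ± 0.12 and Gpx1 at 0.20 ± 0.078. No gene of these last 3 lists passed 1.5-fold on both arrays. Of the assembly factors outside the name rule only Sco1 was measured, at -1.20 on array 1 and 1.02 on array 2, so it has no direction.

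The lists of 2 other large housekeeping systems lay further from 0. Over all genes, 7.83% passed 1.5-fold higher on each array and 2.93% passed it lower. Glycolytic enzymes had a median of 0.71 over 12 genes, of which 7 passed 1.5-fold higher on each array and 1, Ldhb, passed it lower. Tpi1 led at 1.40 ± 0.12 and Aldoa followed at 1.08 ± 0.17, while Ldhb, whose subunit favours lactate use, stood at -1.06 ± 0.13. Cytosolic ribosomal proteins had a median of -0.61 over 46 genes, of which 21 passed 1.5-fold lower on each array and none passed it higher, with Rps15a at -1.51 ± 0.14, Rps4x at -1.07 ± 0.057 and Rps3a1 with -1.14 on array 1 and -0.86 on array 2. The respiratory chain median of 0.065 lay between them; the differences among these lists were not tested.

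**Figure D3:**
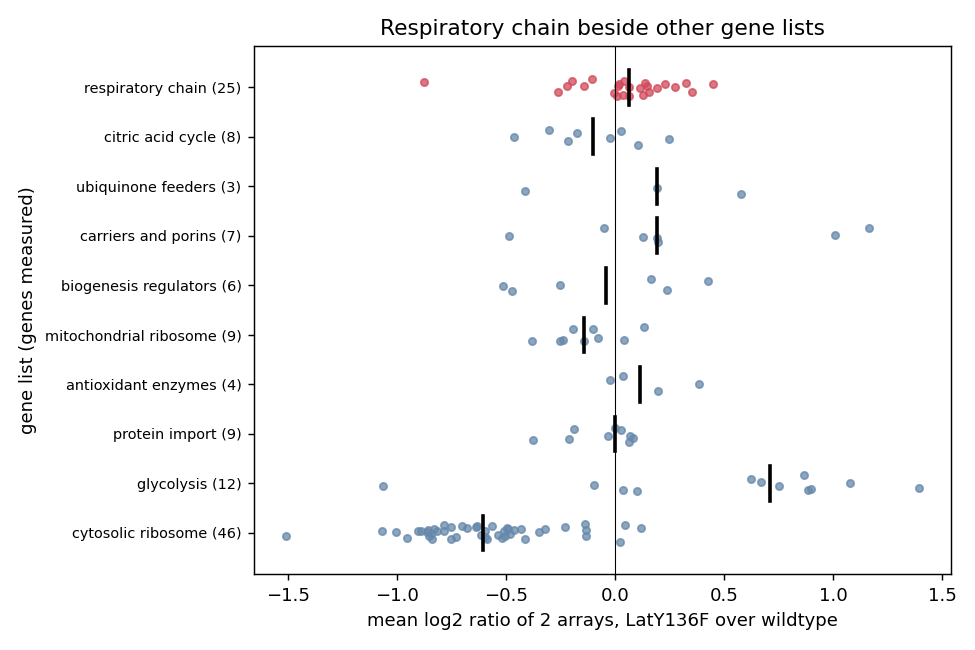
Mean log2 ratio of LatY136F over wildtype over 2 arrays (x axis) for each gene (points) of the respiratory chain and of 9 other lists (y axis, genes measured in brackets); black bars are medians. The respiratory chain median is 0.065, glycolysis stands at 0.71 and the cytosolic ribosome at -0.61.

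Markers of other cell types differed beside these values. At least 1.5-fold on both arrays, 10 of 14 monocyte and macrophage markers were higher (median log2 ratio 1.31; Mrc1 6.63-fold, C1qc 5.57-fold, Lyz1 4.84-fold), as were 3 of 5 neutrophil markers (Il1r2 12.3-fold, Lcn2 8.83-fold and Ngp, the median gene, 5.65-fold). The same held for 2 of 4 erythroid markers (median log2 ratio 0.95; Epor 5.35-fold, Hba-a1 2.10-fold) and both platelet markers (Pf4 2.93-fold, Itga2b 2.30-fold). Of 11 B cell markers 8 were lower (median log2 ratio -1.59; Cd79b 4.89-fold, Ighm 3.76-fold, Cr2 3.38-fold). By the same threshold 7.83% of all genes were higher and 2.93% lower. Among the monocyte and macrophage markers 3 had a mean below 0 (Msr1 at -0.45, Marco at -0.34 and Ctss at -0.13). T cell markers had a median of -0.0085 over 9 genes (Cd247 at -0.88, Cd5 at 0.81 and Cd6 at 0.61). The table gives ratios without levels, so the labelled cell type was not checked against its markers. The part of other cells in the respiratory chain ratios was not tested.

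**Figure D4:**
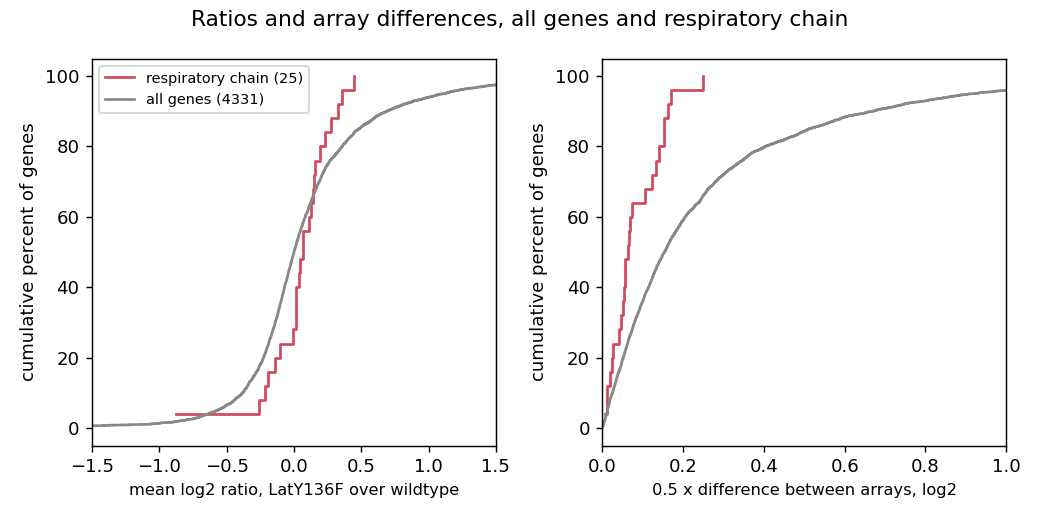
Cumulative percent of genes (y axes) by mean log2 ratio of LatY136F over wildtype (left x axis) and by 0.5 times the difference between the arrays in log2 units (right x axis), for the 25 respiratory chain genes in red and all 4331 genes in grey. The member means spread less, and 0.5 times the difference between the arrays had a median of 0.065 for the members against 0.15 for all genes.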

How the data were processed

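RNA from LatY136F and wildtype cells was measured on 2 arrays. For each of 8014 probes the deposited table gives a log ratio on each array. No log base, direction, background correction or normalization is given in the sources used here; the deposited columns were taken as log10, since the highest value of array 1 is exactly 2. The medians of the deposited columns were -0.0033 and 0.0070, and their Pearson correlation was -0.21. Per the labels the second array has the dyes reversed, so it was multiplied by -1. Values were multiplied by 3.32 to give log2 ratios, each array was centred on its median, and probes of a gene were averaged. The platform annotation named a single gene for 4654 probes, which were used, several genes for 73 and no gene for 3287. All 25 members matched RefSeq by gene identifier. The deposited table gives no depth.

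A dye-reversal pair counts as 1 replicate, so no test was made. Members were called at 1.2-fold, 1.5-fold and 2-fold on both arrays. All members are named; of other lists, up to 3 genes with the same sign and the largest mean; Slc25a5 and Sco1 were added after their values were seen. Protein kinases were left out of the ribosomal list after the data were seen. The lists, like the members, were chosen with earlier results of these data known. Python 3.11.15, pandas 2.3.3 and numpy 2.4.6 were used.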

Additional observations from a re-analysis of the deposited data

How the results depend on the processing

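Cox7a2l stood between -0.90 and -0.86 over 8 alternatives other than turning the sign or reading the table as log2. Choices among probes could not move it, since it has a single probe. Without array 1 it stood at -0.86 and without array 2 at -0.89. Leaving out an array gave medians of 0.059 to 0.071 for the members, 0.014 to 0.039 for complex I, -0.038 to 0.046 for complex II, -0.51 to -0.015 for complex III, 0.0061 to 0.29 for complex IV and 0.10 to 0.12 for complex V, with no member past 1.5-fold higher and 1 lower on either array alone. Without centring the members' median was 0.048 and that of complex V 0.085. Centred on named probes, the medians were 0.044 for the members, 0.0071 for complex I and 0.081 for complex V. Under each of these choices 17 members had the same sign on both arrays, against 18 in the main analysis. Counting probes singly gave 0.042 for the members and -0.098 for complex II. Means in place of medians were 0.038 for the members, 0.046 for complex I, -0.016 for complex IV and 0.13 for complex V. Structural subunits alone gave 0.089 for the members and 0.11 for complex II, with 0 lower past 1.5-fold, since Cox7a2l is not among them. Without Cox7a2l, an alternative chosen after seeing the data, the members' median stayed at 0.065 and that of complex IV was 0.19.

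Turning the sign gave -0.065 for the members and -0.028, 0.26, -0.15 and -0.10 for complexes I, III, IV and V, with 1 member higher and 0 lower past 1.5-fold; Atp5pb became -0.33, Cox6a1 -0.36, Cox7a2l 0.88 and Cox8a -0.45. Read as log2, Cox7a2l stood at -0.26, and the medians were 0.020 for the members, 0.0084 for complex I and 0.031 for complex V, with 0 members lower past 1.5-fold. Equal scaling, and the omission of probes at exactly 0, moved these values by less than the difference between the arrays. For single genes, turning the sign reversed all 25 means. Centring on named probes changed the sign of 3 (Atp5c1, Ndufa11 and Ndufa4l2) and no centring that of 2 (Atp5c1 and Ndufa4l2), all with opposite signs on the arrays. The 2 Cycs probes, each taken alone after seeing the data, gave 0.47 and -0.078; the cause was not tested. No paired analysis was possible because the pair of arrays is the only comparison.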
